A study of Mus musculus with 18 samples.

Results

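The replication-dependent histone genes were followed in whole-tissue RNA of subcutaneous white adipose tissue (sWAT) and brown adipose tissue (BAT). They were found by symbol: 70 genes of the count tables carry a name of the form Hist1h to Hist4h followed by a histone class, and 51 of them had at least 10 counts in 4 or more of the 18 libraries. These 51 members, of 23775 genes that passed the same count rule, hold 5 H1, 8 H2A, 15 H2B, 10 H3 and 13 H4 genes. Of the members, 42 lie in the Hist1 cluster on chromosome 13, 5 in the Hist2 cluster on chromosome 3, 3 in the Hist3 cluster on chromosome 11 and 1, Hist4h4, on chromosome 6 (GRCm38).

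Histones package DNA: H2A, H2B, H3 and H4 form the core of the nucleosome, and H1 binds the linker DNA between nucleosomes. The genes of these clusters are transcribed mainly in S phase, when new DNA must be packaged, and their mRNAs end in a conserved stem-loop in place of a poly(A) tail. The stem-loop is bound by SLBP, the stem-loop binding protein, and is needed for 3′ processing, translation and the rapid decay of the mRNA when replication stops. In differentiated tissue some of the same genes, H1c (H1.2) and several H2B genes among them, are also known to give longer, polyadenylated transcripts. Mature adipocytes do not divide, whereas stromal, vascular and immune cells of fat can.

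Csn8AKO mice carry floxed Csn8 alleles (Csn8 f/f) and Cre recombinase under the adiponectin promoter, which removes exons 4 to 6 of Csn8 (Cops8 in the tables) in adipocytes only. Ctrl mice were Csn8 f/f littermates without Cre, so that both genotypes carry the floxed alleles. All mice were male, ate chow and were fasted for 4 h. The sWAT came from 4 Ctrl and 4 Csn8AKO mice of 12 weeks and the BAT from 5 and 5 mice of 4 weeks, with 1 mouse per library, so that tissue and age cannot be told apart. Ribosomal RNA was depleted without selection for poly(A), which leaves mRNAs without a tail in the libraries. In bulk tissue, fewer cells of a type and less RNA per cell cannot be told apart.

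Counted reads ran from 15835721 to 23109603 per library in sWAT and from 26658593 to 66719937 in BAT. Levels below are CPM, counts relative to library size, scaled by TMM factors over all 18 libraries (scaled CPM). Cops8 ran from 31.9 to 35.9 scaled CPM in Ctrl sWAT and from 27.1 to 34.8 in Csn8AKO sWAT (log2 fold change -0.12, edgeR adjusted p = 0.685). In BAT it ran from 38.1 to 45.9 and from 28.3 to 37.3 (log2 fold change -0.29, edgeR adjusted p = 0.0233). The fat of these mice also holds other cells, in which Cre is not active. Counts are per gene, so that reads of Cops8 exons outside the deleted ones are counted too. The part of either in the Cops8 levels was not tested. Brown adipocyte markers summed to between 4320 and 9250 scaled CPM in BAT and to between 11.2 and 147 in sWAT. Some libraries stood apart. In Ctrl sWAT 1 and Csn8AKO sWAT 2 the 10 B cell markers summed to 269 and 673 scaled CPM, against 8.04 to 27.0 in the other sWAT libraries, and the 10 T cell markers to 297 and 377, against 11.4 to 39.1. In Csn8AKO BAT 1 and 5 the 8 skeletal muscle markers summed to 124 and 218 scaled CPM, against 1.75 to 3.28 in the other BAT libraries. In sWAT the muscle markers ran from 44.6 to 2870 across both genotypes. These markers' part in the results was not tested beyond fits without those libraries.

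The stem-loop could be read in annotated transcripts of 35 members, as 6 paired bases, 4 loop bases and the 6 bases that pair back. The loop was TTTC in 27, TTTA in 5 and TTTT in 3, and in the other 16 members no perfect match lies in the annotated transcript (GENCODE M21, GRCm38). Of the members called in BAT below, Hist2h2be, Hist1h2bc, Hist1h1a, Hist1h1b and Hist1h3h are among those without a match. A missing match does not show that a gene lacks the element. Some of these annotations are short, with 411 bases in Hist1h3h and 312 in Hist1h4k, and may end before it. The sequences below, as DNA of the sense strand from 5′ to 3′, show the element in 6 members named in the results. The stem is in capitals, with 5 flanking bases on each side.
Hist1h1c: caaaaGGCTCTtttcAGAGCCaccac
Hist1h4d: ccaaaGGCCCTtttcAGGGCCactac
Hist1h4c: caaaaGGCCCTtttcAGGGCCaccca
Hist1h3d: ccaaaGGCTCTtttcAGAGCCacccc
Hist1h2bm: acaaaGGCTCTtttcAGAGCCactaa
Hist2h4: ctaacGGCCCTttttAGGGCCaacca
All stem-loops found in H1, H2A, H2B and H3 members opened with GGCTCT, and those of H4 members with GGCCCT or GGTCCT. The annotated transcript ended 46 bases after the loop in Hist1h2bm, but 454 bases after it in Hist1h4c, 752 in Hist1h3d, 770 in Hist1h4d, 840 in Hist1h1c and 1257 in Hist2h4. Altogether 20 members had more than 100 annotated bases past the loop and 15 had up to 100.

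Promoters of 45 members were in the RefSeq table (GRCm38.p6), as 250 bases before and 50 after the transcription start. The promoters of 2 members that were higher in Csn8AKO BAT, Hist1h1b and Hist1h2bm, and of 2 that were lower, Hist1h1c and Hist1h4d, are printed with 4 short motifs in capitals wherever they occur on either strand: the CCAAT box, the TATA box with the letters TATAAA, the octamer with the letters ATTTGCAT and the H1 box with the letters AAACACA.
Hist1h1b (chr13:21780576-21780875, minus strand): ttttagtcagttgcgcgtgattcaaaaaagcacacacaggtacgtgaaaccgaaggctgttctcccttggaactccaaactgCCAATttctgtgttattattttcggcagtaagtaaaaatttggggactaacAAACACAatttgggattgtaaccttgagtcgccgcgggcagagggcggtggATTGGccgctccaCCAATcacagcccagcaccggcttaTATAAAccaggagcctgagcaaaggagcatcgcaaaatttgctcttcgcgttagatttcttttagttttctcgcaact
Hist1h2bm (chr13:21721794-21722093, plus strand): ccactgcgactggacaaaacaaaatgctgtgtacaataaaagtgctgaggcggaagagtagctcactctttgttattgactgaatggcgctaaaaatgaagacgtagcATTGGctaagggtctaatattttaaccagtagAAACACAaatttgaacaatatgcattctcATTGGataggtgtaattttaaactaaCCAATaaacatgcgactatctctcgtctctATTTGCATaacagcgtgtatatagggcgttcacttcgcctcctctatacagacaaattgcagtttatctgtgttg
Hist1h1c (chr13:23738557-23738856, plus strand): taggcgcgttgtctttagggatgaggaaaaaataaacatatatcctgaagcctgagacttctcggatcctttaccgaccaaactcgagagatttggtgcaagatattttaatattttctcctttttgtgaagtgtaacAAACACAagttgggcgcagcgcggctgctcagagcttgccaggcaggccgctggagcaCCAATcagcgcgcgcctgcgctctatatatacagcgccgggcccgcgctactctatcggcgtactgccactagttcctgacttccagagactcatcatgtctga
Hist1h4d (chr13:23581318-23581617, plus strand): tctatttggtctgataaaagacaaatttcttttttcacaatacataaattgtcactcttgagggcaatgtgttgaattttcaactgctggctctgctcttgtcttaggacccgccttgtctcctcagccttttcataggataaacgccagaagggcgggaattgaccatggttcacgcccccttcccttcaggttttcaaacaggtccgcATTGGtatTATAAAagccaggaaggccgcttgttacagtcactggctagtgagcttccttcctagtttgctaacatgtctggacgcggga
CCAAT was in the promoters of 36 of the 45 members (80%), against 37.9% of 27025 promoters in the table. It was in every promoter of the 5 H1, 8 H2A, 12 H2B and 8 H3 members in the table, and in 3 of 12 H4 promoters. TATAAA was in 28 of 45 (62.2%), against 14.2% of all promoters. ATTTGCAT was in 5 of 8 H2A and 4 of 12 H2B promoters and in 0 of the H1, H3 and H4 promoters, against 1.75% of all. AAACACA was in 4 of 5 H1 promoters, against 7.14% of all. All 4 printed promoters hold CCAAT, and Hist1h1b, Hist1h1c and Hist1h2bm hold the H1 box. A match is only a match of letters.

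Per kilobase of exon, H4 genes had the highest levels. Hist1h4h was at 59.9 ± 34.6 scaled CPM per kb (mean ± SD, n = 18 libraries), Hist1h4d at 51.5 ± 15.9 and Hist1h4c at 35.9 ± 12.7. Hist1h1c followed at 34.2 ± 11.9, then Hist1h4f at 25.1 ± 8.39 and the leading H2B gene, Hist1h2bc, at 18.5 ± 5.43. These neighbours in the order overlap within their SDs. By group means, Hist1h4d was above Hist1h4h in sWAT, at 53.1 scaled CPM per kb against 44.2 in Ctrl and 42.3 against 33.1 in Csn8AKO, and Hist1h4h was above Hist1h4d in BAT, at 82.6 against 66.7 in Ctrl and 71.3 against 42.5 in Csn8AKO. Among the H1 genes, Hist1h1e (8.11 ± 3.49) and Hist1h1b (6.21 ± 3.75) came after Hist1h1c. The order per kilobase depends on the annotated exon length, which ran from 312 bases (Hist1h4k) to 7425 (Hist1h1d). Before division by length, Hist1h1d had a mean of 9.79 scaled CPM and Hist1h1b 4.61. Of the annotated bases of Hist1h1d, 4884 lie past the stem-loop. Among the H2B genes, Hist1h2bn (7.98 ± 3.65) and Hist1h2bb (7.07 ± 3.26) came after Hist1h2bc. The leading H3 genes were Hist1h3e (12.1 ± 6.25), Hist1h3i (8.20 ± 2.81) and Hist1h3f (5.64 ± 2.50). The 8 H2A members were low, with Hist2h2ac at 2.95 ± 1.68, Hist1h2ak at 0.993 ± 1.35 and Hist3h2a at 0.776 ± 0.323.

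The low H2A values have a counterpart in the annotation. Of the 20 H2A symbols, 19 overlap a predicted miRNA gene on the other strand, and none of the 50 other histone symbols does. A read that fits 2 genes is not counted, and whether counting used the strand is not stated, so the level of H2A against the other classes cannot be read from these counts. Of the 19 symbols below the count rule, 12 were H2A, 4 H2B, 2 H3 and 1 H1, and 6 had no count in any library. The copies of a class are also near-identical: a median of 77.7% of the 150-base windows of a member, and of 13.9% of those of a symbol below the rule, occur in no other gene. In 11 members under 50% of the windows are unique, so that their counts rest on part of the transcript.

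**Figure D1:**
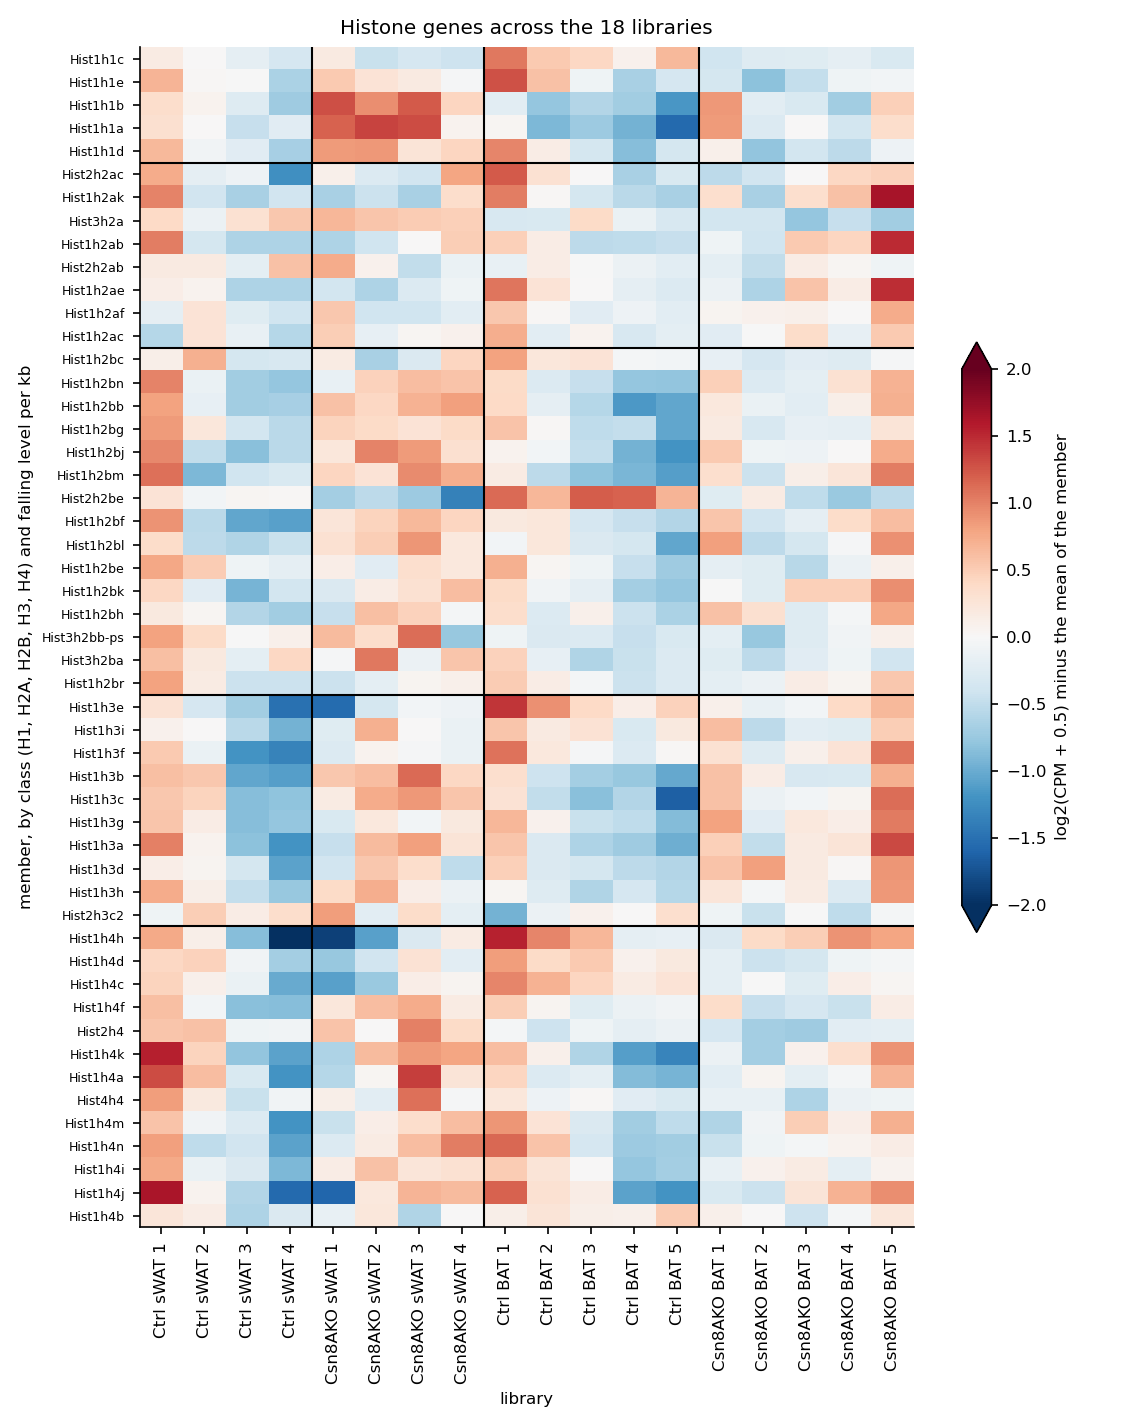
Levels of the 51 members in the 18 libraries, as log2(scaled CPM + 0.5) minus the mean of each member, with members in rows by class and falling level per kilobase and libraries in columns by group. Hist2h2be is low in both Csn8AKO groups, and Hist1h1b is higher in all 4 Csn8AKO sWAT libraries (from 5.56 scaled CPM) than in any Ctrl sWAT library (up to 5.22). Ctrl sWAT 1 and Ctrl BAT 1 have the highest sum of every class among the Ctrl libraries of their tissue.

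Summed over the members, histone genes took 0.0215% (Csn8AKO sWAT 4, 95% Wilson interval 0.0209% to 0.0221%) to 0.0655% (Ctrl sWAT 1, 0.0643% to 0.0666%) of the counted reads. The interval covers counting error only. The total includes leftover ribosomal RNA and mitochondrial genes. These took from 3.57% (Ctrl sWAT 4) to 48.4% (Csn8AKO sWAT 4) of the counted reads in sWAT, and 32.7% in Csn8AKO sWAT 3. In BAT they took from 8.31% to 22.4%. With them removed from the total, the log2 ratio of the summed shares, Csn8AKO to Ctrl, was 0.14 in sWAT, against -0.0622 with them. In BAT it was -0.215, against -0.189. H4 and H1 genes held most of these reads. Hist1h4d gave a mean of 16.1% of a library's histone counts and Hist1h1c 14.8%, and the first 5 genes, with Hist1h4c, Hist1h4h and Hist2h4, gave 52.5%.

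In BAT, the summed level was 631, 433, 400.1, 308.5 and 341 scaled CPM in the Ctrl libraries and 320.1, 285, 290.2, 339.9 and 396 in the Csn8AKO libraries. The groups overlap, and Ctrl BAT 1 is the highest. H1 genes summed to 109 ± 36.0 scaled CPM (SD, n = 5) in Ctrl BAT and 69.1 ± 5.15 (SD, n = 5) in Csn8AKO BAT, and H4 genes to 215 ± 58.4 and 165 ± 22.7. H3 genes summed to 34.6 ± 13.9 and 36.3 ± 11.5, and H2B genes to 60.2 ± 17.6 and 51.1 ± 8.85. In sWAT, all members summed to 500.4, 396, 271 and 216 scaled CPM in Ctrl and to 325, 321, 432 and 358.5 in Csn8AKO, within the range of the controls. H3 genes summed to 23.8 ± 13.3 (SD, n = 4) in Ctrl sWAT and 30.7 ± 6.55 (SD, n = 4) in Csn8AKO sWAT. In both tissues the genotypes overlap in each of the 5 class sums. The H1 sum of BAT came nearest to a separation: 4 of the 5 Ctrl libraries, from 93.4 to 168, lay above the Csn8AKO range of 61.7 to 73.8, and Ctrl BAT 4 lay within it at 71.8.

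**Figure D2:**
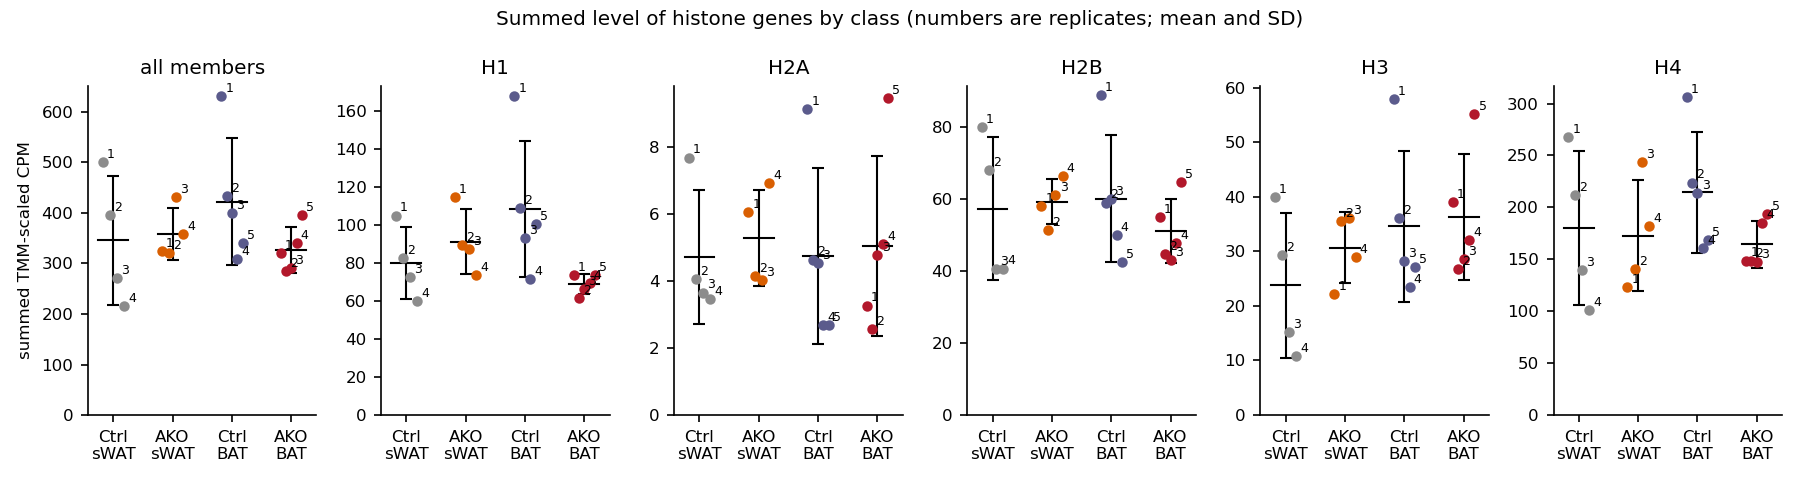
Summed scaled CPM of all members and of each histone class in every library (points, numbered by replicate) with the group mean and SD, from 0. Ctrl BAT 1 is the highest BAT library for all members together (631 scaled CPM), and Ctrl sWAT 1 the highest sWAT library (500.4 scaled CPM).

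The genotype comparison in BAT asked which genes change when CSN8 is lost from brown adipocytes. By edgeR's quasi-likelihood test, 5 members were higher and 5 lower in Csn8AKO BAT at an adjusted p under 0.05, that is 9.8% in each direction. Of all 23775 genes, 15.6% were called higher and 14.8% lower, which is a larger share than among the members. Over the members the log2 fold change ran from -1.41 to 1.64, with 30 of 51 above 0 and a median of 0.21, against a median of 0.02 over all genes. Scaled by library size alone, the median of all genes moved to 0.15, 18.1% of all genes were called higher and 8.86% lower, and 9 members were higher and 4 lower.

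Hist2h2be, an H2B gene of the Hist2 cluster (chromosome 3, 96221119 to 96223738, plus strand), changed most among the called members. It is a member by its symbol, with 2620 bases of exon and no perfect stem-loop in its annotated transcript. Whether its mRNA is of the replication-dependent kind was not tested. It was at 14.6, 10.3, 15.3, 15.1 and 10.5 scaled CPM in Ctrl BAT and at 5.28, 7.15, 4.31, 3.60 and 4.26 in Csn8AKO BAT. Every Csn8AKO library lay below every Ctrl library (log2 fold change -1.41, SE 0.19, edgeR adjusted p = 6.86e-05). Hist1h1c, which encodes the linker histone H1.2 (chromosome 13, 23738808 to 23740367, plus strand), was at 107, 73.3, 68.3, 54.0 and 79.8 scaled CPM in Ctrl BAT and at 38.6, 42.5, 42.8, 45.0 and 41.1 in Csn8AKO BAT. The groups do not overlap (log2 fold change -0.84, SE 0.14, edgeR adjusted p = 3.91e-04). The Csn8AKO libraries lie close together, with an SD of 2.37 against 19.5 in Ctrl.

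Both H4 genes that were lower had the same pattern. Hist1h4d (chromosome 13, 23581598 to 23582735, plus strand) was at 101, 73.4, 81.3, 59.5 and 64.0 scaled CPM in Ctrl BAT and at 48.9, 41.6, 43.7, 53.1 and 54.5 in Csn8AKO BAT, with no overlap (log2 fold change -0.62, SE 0.13, edgeR adjusted p = 0.00248). Hist1h4c (chromosome 13, 23697635 to 23698454, minus strand) was at 54.8, 45.0, 37.3, 31.0 and 33.6 in Ctrl BAT and at 24.1, 27.6, 23.3, 30.4 and 28.5 in Csn8AKO BAT. These groups do not overlap either (log2 fold change -0.57, SE 0.14, edgeR adjusted p = 0.00676). Hist1h2bc (chromosome 13, 23684199 to 23692908, plus strand), an H2B gene, ran from 19.9 to 36.2 in Ctrl BAT and from 16.3 to 20.2 in Csn8AKO BAT, overlapping at the edge (log2 fold change -0.46, SE 0.14, edgeR adjusted p = 0.0257). In all, 5 members lay wholly lower in Csn8AKO BAT, the fifth being Hist3h2a (adjusted p = 0.0855), and 0 wholly higher. Over all genes 10.9% lay wholly lower and 9.23% wholly higher.

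The members that were higher belonged to H1, H2B and H3. Hist1h1a, the gene of H1.1 (chromosome 13, 23763666 to 23764406, plus strand), was at 3.5, 1.59, 1.86, 1.54 and 0.835 scaled CPM in Ctrl BAT and at 6.54, 2.72, 3.42, 2.52 and 4.49 in Csn8AKO BAT (log2 fold change 1.13, SE 0.36, edgeR adjusted p = 0.0308). Hist1h1b, the gene of H1.5 (chromosome 13, 21779883 to 21780625, minus strand), was at 3.37, 2.13, 2.49, 2.26 and 1.5 in Ctrl BAT and at 7.65, 3.37, 3.14, 2.27 and 5.78 in Csn8AKO BAT (log2 fold change 0.96, SE 0.32, edgeR adjusted p = 0.0374). In both genes Csn8AKO BAT 1 and 5 are the highest libraries and the groups overlap, with Ctrl BAT 1 the highest control.

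The groups also overlap in the other members that were higher. Hist1h2bm (chromosome 13, 21722044 to 21722567, plus strand) was at 1.59, 0.803, 0.565, 0.494 and 0.371 scaled CPM in Ctrl BAT and at 1.86, 0.893, 1.52, 1.71 and 3.31 in Csn8AKO BAT (log2 fold change 1.34, SE 0.40, edgeR adjusted p = 0.0215). Hist1h3d (chromosome 13, 23575763 to 23577011, plus strand) was at 3.34, 1.76, 1.66, 1.42 and 1.34 in Ctrl BAT and at 3.56, 4.38, 2.61, 2.28 and 4.59 in Csn8AKO BAT (log2 fold change 0.90, SE 0.27, edgeR adjusted p = 0.0204). Hist1h3h (chromosome 13, 21717659 to 21718069, plus strand) ran from 0.166 to 0.539 and from 0.336 to 1.35 (log2 fold change 1.21, SE 0.42, edgeR adjusted p = 0.0404), with 9.54% of its windows unique.

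The number of calls on the higher side depended on single libraries. Without Ctrl BAT 1, 13 members were called higher, 5 H2B and 6 H3 genes among them, where 13.9% of all genes were. Without Ctrl BAT 2 there were 3, without Ctrl BAT 5 or Csn8AKO BAT 1 there were 2, and without Ctrl BAT 3, Ctrl BAT 4 or Csn8AKO BAT 5 there were 0, with 8, 7 and 5 members at an unadjusted p under 0.05 on the higher side. In these 6 fits between 12.5% and 14.7% of all genes were called higher. Without both Csn8AKO BAT 1 and 5, which hold the muscle markers and the highest Mki67 levels, edgeR called 0 members higher, with 2 at an unadjusted p under 0.05, against 10.8% of all genes called, and the same 5 lower. Hist1h1b then had a log2 fold change of 0.31 and Hist1h1a of 0.65. On the lower side, between 4 and 5 members were called whichever library was left out, and Hist2h2be, Hist1h1c, Hist1h4d and Hist1h4c were among them each time. Between 11.7% and 17.4% of all genes were called lower in those fits.

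**Figure D3:**
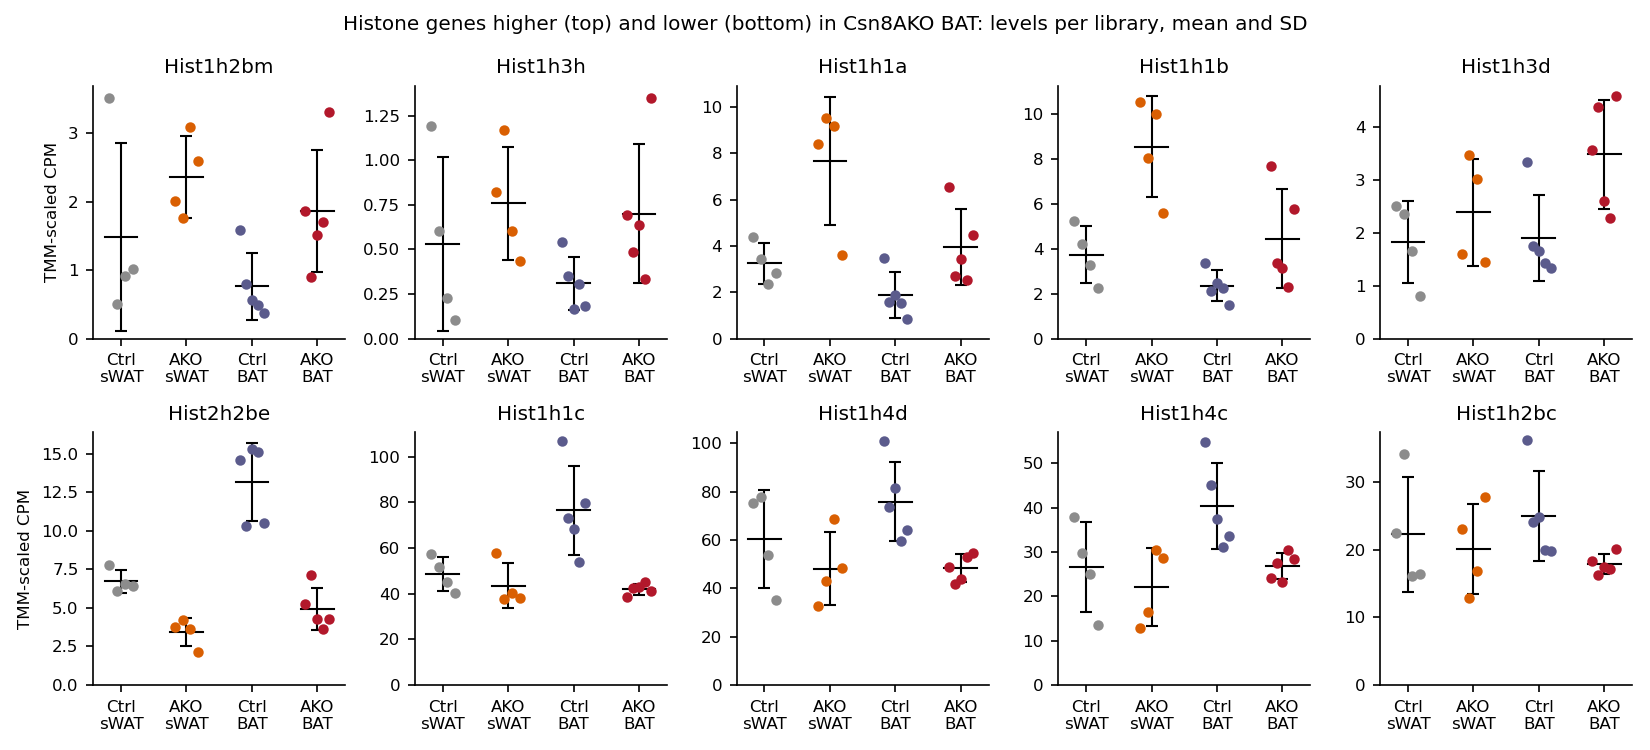
Scaled CPM of the 5 members that were higher (top) and the 5 that were lower (bottom) in Csn8AKO BAT, in every library of the 4 groups (AKO stands for Csn8AKO), with the mean and SD, from 0. In the bottom row the Csn8AKO BAT libraries lie below all Ctrl BAT libraries for Hist2h2be, Hist1h1c, Hist1h4d and Hist1h4c, while every gene in the top row overlaps between the BAT groups.

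In sWAT, 0 members were called higher and 0 lower by edgeR, where 1.73% of all genes were called higher and 2.3% lower. At an unadjusted p under 0.05 there were 5 members, 4 higher and 1 lower, against 17.2% of all genes. DESeq2 and limma voom each called Hist1h1a and Hist1h1b higher and Hist2h2be lower. Of all genes, DESeq2 called 3.56% higher and 4.07% lower, and limma voom 3.41% and 3.62%. The median log2 fold change of the members was 0.26, with 37 of 51 above 0, against 0.03 over all genes. Scaled by library size alone, 0.454% of all genes were called higher and 1.29% lower, and again 0 members.

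The 3 members nearest the threshold in sWAT were also called in BAT. Hist1h1b was at 5.22, 4.22, 3.26 and 2.23 scaled CPM in Ctrl sWAT and at 10.5, 8.01, 10.0 and 5.56 in Csn8AKO sWAT, with no overlap (log2 fold change 1.19, SE 0.30, edgeR adjusted p = 0.0516). Hist1h1a was at 4.37, 3.42, 2.34 and 2.84 in Ctrl sWAT and at 8.40, 9.52, 9.19 and 3.61 in Csn8AKO sWAT, where 1 library, Csn8AKO sWAT 4, lay within the Ctrl range (log2 fold change 1.25, SE 0.33, edgeR adjusted p = 0.0612). Hist2h2be was at 7.81, 6.08, 6.57 and 6.44 in Ctrl sWAT and at 3.79, 4.24, 3.62 and 2.17 in Csn8AKO sWAT, with no overlap (log2 fold change -0.95, SE 0.25, edgeR adjusted p = 0.0593). Hist1h1b and Hist2h2be were the only members without overlap in sWAT, 1 higher and 1 lower, against 4.89% and 6.78% of all genes. The remaining named members had adjusted p-values of 0.241 or more, among them Hist1h2bl (log2 fold change 1.08), Hist1h1d (0.65) and Hist1h2bb (0.74, adjusted p = 0.356) on the higher side. On the lower side, Hist1h4d (-0.33), Hist1h2ak (-1.29), Hist1h1c (-0.16) and Hist1h2br (-1.04) followed Hist2h2be.

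The sWAT counts change with 3 libraries. Without Csn8AKO sWAT 2, Hist1h1b was called higher and Hist2h2be lower, and without Csn8AKO sWAT 4, Hist1h1a and Hist1h1b were called higher. Of all genes, 3.33% were called higher and 2.71% lower without Csn8AKO sWAT 2, and 1.55% higher without Csn8AKO sWAT 4. Without Ctrl sWAT 1, 6 members were called higher (Hist1h1a, Hist1h1b, Hist1h1d, Hist1h2bb, Hist1h2bf and Hist1h2bj), against 1.46% of all genes, and the median over the members was 0.74, against 0.05 over all genes. Without both libraries with lymphocyte markers, Ctrl sWAT 1 and Csn8AKO sWAT 2, 8 members were called higher and Hist2h2be lower, with Hist1h2bm and Hist1h4f added. In that fit 4.08% of all genes were called higher and 3.42% lower. Hist1h2bf, an H2B gene, was at 2.51, 0.603, 0.286 and 0.254 scaled CPM in Ctrl sWAT and between 1.41 and 2.01 in Csn8AKO sWAT (log2 fold change 0.84, edgeR adjusted p = 0.587 with all libraries). Ctrl sWAT 1 lies above the whole Csn8AKO range, and the other controls lie below it. Hist1h3b had a log2 fold change of 0.84 (edgeR adjusted p = 0.436) and Hist1h4f of 0.64 (edgeR adjusted p = 0.397) with all libraries.

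**Figure D4:**
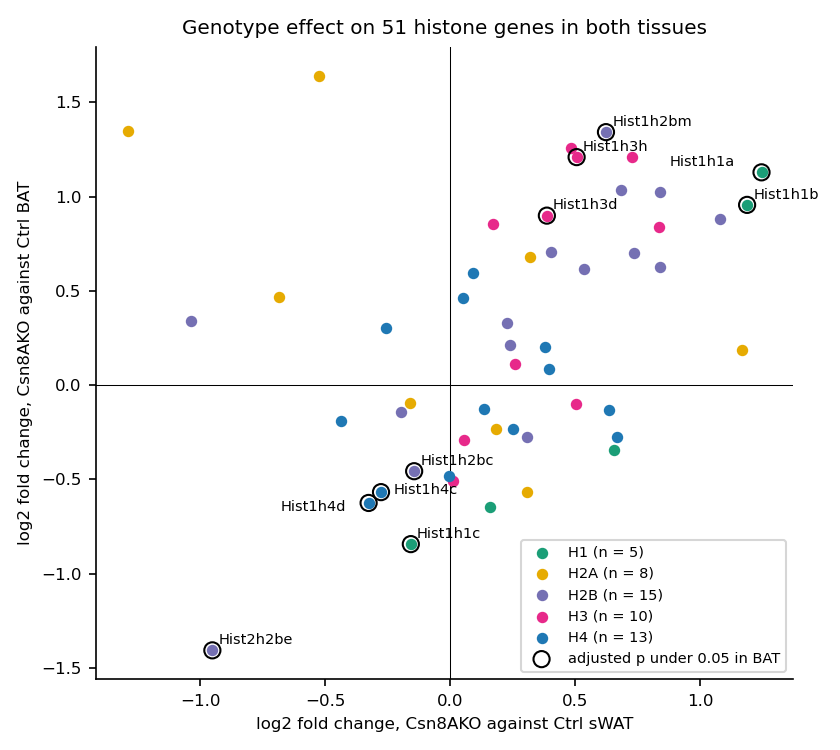
Log2 fold change of each member, Csn8AKO against Ctrl, in sWAT (horizontal axis) and in BAT (vertical axis), coloured by histone class, with the 10 members of adjusted p under 0.05 in BAT circled and named. Hist1h1a and Hist1h1b lie near 1 on both axes and Hist2h2be lies below 0 on both (-0.95 and -1.41).

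Whether the genotype effect differed between the tissues was tested by the genotype by tissue term over all 18 libraries. edgeR called 0 members with an effect higher in BAT and 0 lower, and so did DESeq2 and limma voom, against 1.51% and 0.681% of all genes by edgeR (2.06% and 0.168% when scaled by library size alone). At an unadjusted p under 0.05 there were 3 members, all with the lower effect in BAT, against 14.8% of all genes in either direction. Hist1h1c had the smallest p (difference of log2 fold changes -0.71, SE 0.23, edgeR adjusted p = 0.131), with -0.16 in sWAT and -0.84 in BAT. Hist3h2a (-0.90, adjusted p = 0.205), Hist1h1d (-1.03, adjusted p = 0.313), Hist1h4f (-0.79, adjusted p = 0.365) and Hist2h4 (-0.51, adjusted p = 0.390) came next by the same test.

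The ratio of H1 genes within a library does not depend on the scaling between libraries. The counts of Hist1h1a and Hist1h1b together were 16.8%, 14.8%, 12.4% and 12.6% of those of Hist1h1c in Ctrl sWAT and 32.7%, 46.8%, 47.4% and 24.1% in Csn8AKO sWAT. In BAT they were 6.42%, 5.07%, 6.37%, 7.02% and 2.93% in Ctrl and 36.8%, 14.3%, 15.3%, 10.7% and 25% in Csn8AKO. Neither tissue shows overlap between the genotypes, also for the libraries that stood apart in the summed levels. The 3 genes were picked for their changes in these libraries, so the ratio is a description and was not tested.

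Ctrl BAT against Ctrl sWAT, which sets 4-week BAT beside 12-week sWAT, gave 3 members higher and 3 lower in BAT by edgeR, 5.88% each, against 24.9% and 26.1% of all genes. Scaled by library size alone, 16.2% and 29.3% of all genes were called, with 1 member higher and 5 lower. Hist2h2be was higher in BAT (log2 fold change 0.93, SE 0.16, edgeR adjusted p = 3.41e-04), with all 5 BAT libraries from 10.3 to 15.3 scaled CPM above the sWAT range of 6.08 to 7.81. Hist1h1c (log2 fold change 0.62, edgeR adjusted p = 0.0111) and Hist1h3e (1.17, 0.0343) were also higher in BAT. Hist3h2bb-ps, an H2B pseudogene, was lower in BAT (log2 fold change -1.62, edgeR adjusted p = 0.00811), as were Hist2h4 (-0.50, 0.0166) and Hist1h1b (-0.71, 0.0435). Hist1h1c and Hist1h1b were called in opposite directions here, but the call of Hist1h1b was not stable. With single libraries left out, Hist1h1b was still called only without Ctrl sWAT 4 or without Ctrl BAT 1. It was not called with limma voom, with no filter or with all 4 groups in one fit. Without Ctrl sWAT 1, 8 members were called higher in BAT and 1 lower, against 24.5% and 24.9% of all genes. Without Ctrl BAT 1, 2 were higher and 7 lower, against 23.9% and 25.3%. The genotype and tissue comparisons share the Ctrl libraries.

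The relation to proliferation was described with Mki67, the gene of the Ki-67 protein of dividing cells, and Top2a, the DNA topoisomerase of G2 and mitosis. Mki67 was at 19.1, 14.5, 13.1 and 14.7 scaled CPM in Ctrl sWAT and at 31.2, 43.4, 26.2 and 16.6 in Csn8AKO sWAT (log2 fold change 0.94, edgeR adjusted p = 0.0837). In BAT it was at 11.5, 9.71, 8.23, 8.96 and 3.56 in Ctrl and at 30.8, 11.9, 14.7, 11.3 and 26.6 in Csn8AKO (log2 fold change 1.22, edgeR adjusted p = 0.0348). For Top2a the log2 fold change was 1.1 in sWAT (edgeR adjusted p = 0.0884) and 1.23 in BAT (0.0106). For Slbp it was 0.37 in sWAT (0.296) and 0.12 in BAT (0.359).

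The relation of the summed histone level to Mki67 depended on the measure and the scaling. On the log2(scaled CPM + 0.5) scale, Pearson's r was 0.195 and Spearman's rho 0.214 over the 8 sWAT libraries, and -0.0519 and -0.297 over the 10 BAT libraries. Without the 2 libraries farthest from the median Mki67 they were 0.634 and 0.657 in sWAT (n = 6) and -0.0296 and -0.31 in BAT (n = 8). As deviations from the genotype means they were 0.107 and 0.0238 in sWAT and 0.508 and 0.564 in BAT. Scaled by library size alone, r was 0.693 in sWAT and 0.193 in BAT, and with the mean of the log2 levels, which weights members equally, it was 0.429 and 0.632. With Top2a, r was 0.325 in sWAT and -0.124 in BAT, 0.302 and 0.461 within genotypes, and 0.74 and -0.162 without the 2 farthest libraries. The libraries of a tissue share depth and base composition effects, and no p is given. By class in BAT, Pearson's r with Mki67 was 0.537 for the H3 sum, 0.283 for the H2B sum, 0.393 for the H2A sum, -0.334 for the H1 sum and -0.144 for the H4 sum. In sWAT the H1 sum had the highest r of the classes, 0.612, and r was 0.496 for H3, 0.127 for H2B, 0.125 for H2A and -0.0516 for H4.

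Gene by gene, the members spread over a wide range. In BAT, Spearman's rho with Mki67 over the 10 libraries was 0.952 for Hist1h3h, 0.927 for Hist1h1a, 0.903 for Hist1h3d and 0.879 for Hist1h1b, and it was -0.77 for Hist1h1c, -0.673 for Hist1h4c, -0.661 for Hist2h2be and -0.6 for Hist1h4d. It was above 0.5 for 23 of 51 members, against 20.1% of all genes. Taken within genotypes, as deviations from the group means, rho was above 0.5 for 28 of 51, against 11.9% of all genes, with medians of 0.515 and 0.0182. Hist1h2bc then had 0.794, Hist1h4d 0.455, Hist1h4c 0.212 and Hist2h2be 0.139, whereas Hist1h1c had -0.406. Hist1h1b had 0.915, Hist1h1a 0.903, Hist1h3h 0.806 and Hist1h3d 0.721. The members named over both genotypes were among those called in BAT, where Mki67 was also higher in Csn8AKO. The sign of their rho over both genotypes follows from that choice. In sWAT within genotypes, 10 of 51 were above 0.5, against 18.3% of all genes, with Hist1h1a at 0.81 and Hist2h2be also at 0.81. Without removing the genotype means, 19 of 51 were above 0.5, against 18.3%. With Top2a in place of Mki67, 21 of 51 were above 0.5 within genotypes in sWAT, against 17.0% of all genes, and 27 of 51 in BAT, against 10.2%.

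**Figure D5:**
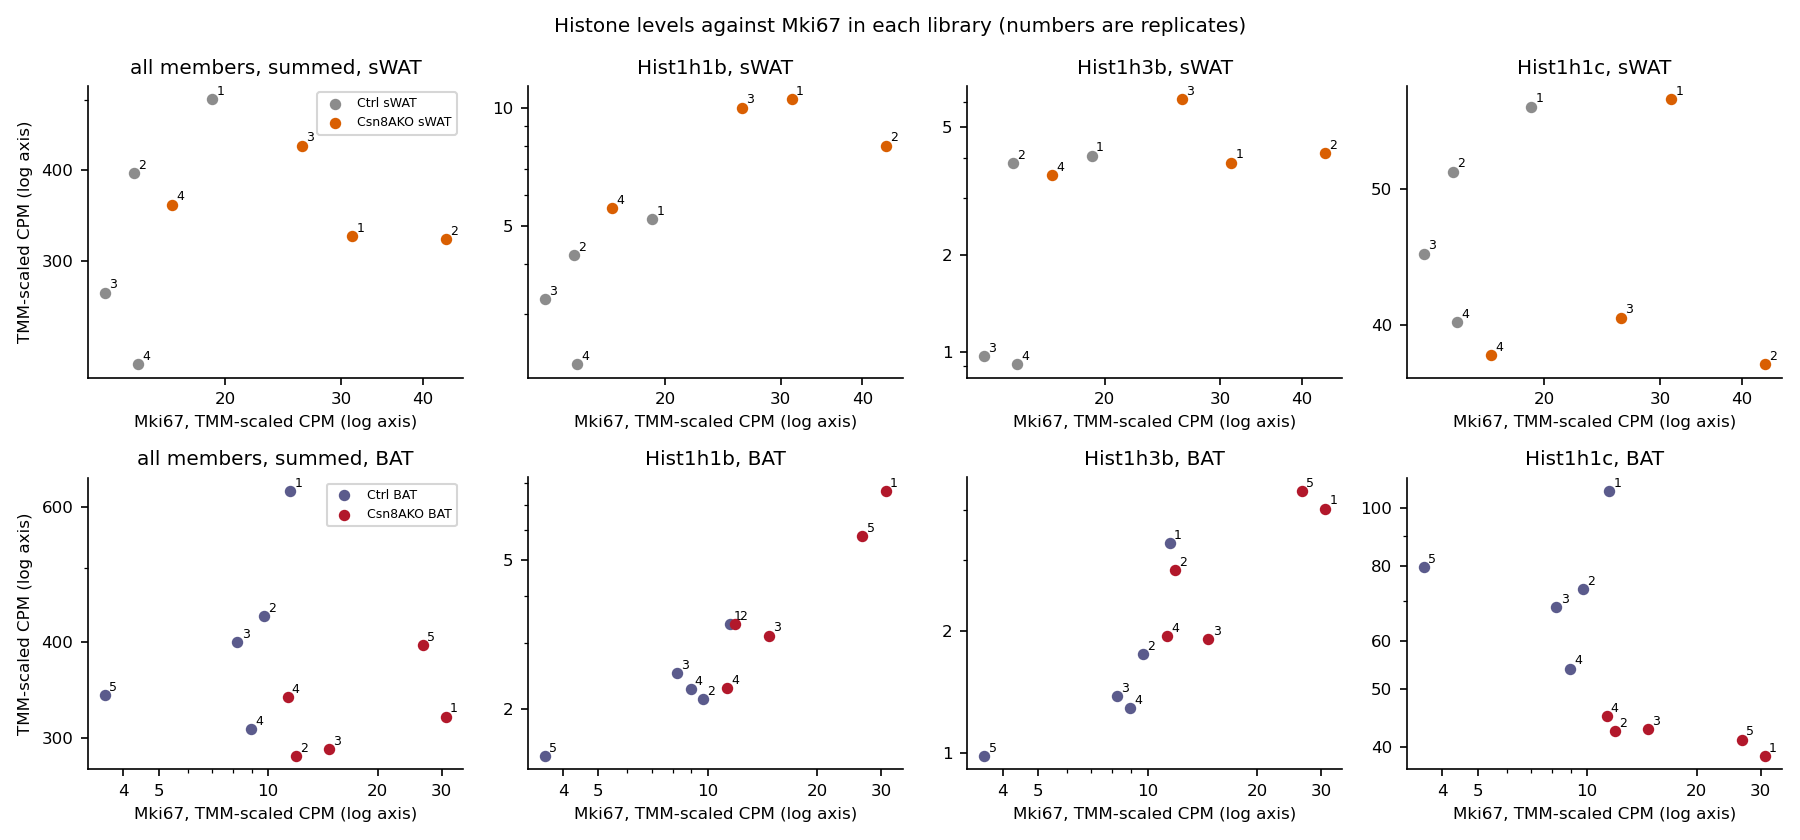
Scaled CPM of all members together, Hist1h1b, Hist1h3b and Hist1h1c against that of Mki67 in each library (log axes; numbers are replicates), for sWAT in the top row and BAT in the bottom row. In BAT, Hist1h1b and Hist1h3b are highest in Csn8AKO BAT 1 and 5, where Mki67 is highest, and Hist1h1c is lowest there and in the other Csn8AKO libraries.

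A second measure that moved with some members was the base composition of the libraries, whose part in the results was tested only by the offset given here. The members' transcripts have a median GC content of 56.3%, against 49.0% for the genes tested. The curve of log2 level on GC content, at 60% against 40% GC, ran from -0.712 in Csn8AKO sWAT 1 to 0.0479 in Ctrl sWAT 2, and in BAT it separated the genotypes, from 0.0316 to 0.0935 in Ctrl and from 0.113 to 0.401 in Csn8AKO. Over the 10 BAT libraries rho with this slope was -0.939 for Hist2h2be, -0.648 for Hist1h4c, -0.624 for Hist1h1c and -0.612 for Hist1h4d, and 0.77 for Hist1h2bm and 0.661 for Hist1h3h. Within genotypes it was -0.745 for Hist2h2be, 0.418 for Hist1h4c, 0.491 for Hist1h1c, 0.503 for Hist1h4d, 0.491 for Hist1h2bm and 0.212 for Hist1h3h. Within genotypes in sWAT, 22 of 51 members had a rho above 0.5 with this slope, against 13.9% of all genes, led by Hist1h2ab (0.85), Hist1h2bk (0.833) and Hist1h3e (0.81). Hist1h4h, for example, was at 39.7, 25.4, 12.7 and 5.33 scaled CPM in Ctrl sWAT and at 6.07, 10.8, 19.1 and 26.3 in Csn8AKO sWAT. The genotypes overlap over nearly the whole range. Hist1h1a and Hist1h1b had -0.0476 each. With an offset for GC content, BAT kept 5 members higher and 5 lower, the same genes, and in sWAT Hist1h1a and Hist1h1b were called higher. Of all genes, 16.3% were then higher and 13.9% lower in BAT, and 2.22% higher in sWAT.

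The members were also grouped by the annotated end of their transcripts. The 20 members with over 100 bases past the stem-loop had a median log2 fold change of -0.188 in BAT, with 3 lower and 1 higher. The 15 with up to 100 bases had a median of 0.702, with 0 lower and 1 higher. The 16 without a perfect stem-loop in the annotated transcript had one of 0.637, with 2 lower and 3 higher. Those 16 include short annotations that may end before the loop, so they are not a class of transcript ends. In sWAT the medians were 0.198, 0.635 and 0.2. By level per kilobase, the 17 members with the highest levels had a median of -0.129 in BAT and held 4 of the 5 members that were lower and 1, Hist1h1b, that was higher, and the 17 next had 0.841. These properties go together in the same genes, and their parts were not separated. The split was made with the results known, and no test was run.

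Among related genes, the replication-independent histones were called higher in 3 and lower in 1 of 12 in BAT, and lower in 1 of 12 in sWAT. The counts in these lists stand beside 15.6% of all genes called higher and 14.8% lower in BAT, and 1.73% and 2.3% in sWAT. H1f0, the linker histone H1.0 of non-dividing cells, was lower in BAT (log2 fold change -1.22, edgeR adjusted p = 4.77e-06), and H3f3b (0.38, 0.00241) and H2afy2 (0.56, 0.00881) were higher. H1fx, the linker histone H1.X, was lower in sWAT (-1.63, edgeR adjusted p = 0.0329). Of 17 genes for histone mRNA transcription and 3′ processing, 4 were higher and 1 lower in BAT, and 0 were called in sWAT. Lsm10, of the U7 snRNP that cuts histone pre-mRNA, was the lower one (-0.74, edgeR adjusted p = 0.00495), and Lsm1 (0.35, 0.0174) and Ncbp1 (0.29, 0.0190) were higher. Of 21 chaperones and assembly factors, 2 were higher and 2 lower in BAT and 0 called in sWAT. Chaf1b, of the CAF-1 complex that loads H3 and H4 onto new DNA, was higher (1.08, edgeR adjusted p = 0.00299), as was Ipo4 (0.45, 0.00532), and Atrx was lower (-0.28, 0.0146).

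More cell cycle genes were called in BAT, as were more genes of all kinds (15.6% of all genes higher, against 1.73% in sWAT). The median log2 fold change was close in both tissues, 0.36 in sWAT and 0.33 in BAT for S phase genes and 0.86 and 0.82 for G2 and M phase genes, and the genotype by tissue term called 0 of either list by edgeR. Of 40 S phase genes, 14 were higher and 2 lower in BAT and 0 were called in sWAT, with E2f2 (log2 fold change 1.44, edgeR adjusted p = 3.05e-04), Tk1 (0.65, 0.00131) and Hells (0.76, 0.00167) of smallest p in BAT. Of 30 G2 and M phase genes, 19 were higher and 0 lower in BAT and 1, Bub1, was higher in sWAT (2.33, edgeR adjusted p = 0.0183). Plk1 (1.84, 8.05e-05), Cdc20 (1.16, 0.00131) and Aurkb (1.27, 0.00306) had the smallest p in BAT. The G2 and M phase genes summed to between 39.9 and 77.8 scaled CPM in Ctrl BAT. They summed to 142 in Csn8AKO BAT 1 and 126 in Csn8AKO BAT 5, the libraries with muscle markers, and to 68.8 to 77.8, within the Ctrl range, in the other Csn8AKO BAT libraries. In sWAT they summed to between 69.8 and 96.4 in Ctrl and to 140, 178, 142 and 89.0 in Csn8AKO. Of 7 tested RNAs without a poly(A) tail that are not histone mRNAs, 1, Rn7sk, was higher in BAT (0.47, edgeR adjusted p = 0.00760) and 0 were called in sWAT.

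Markers of some other cells moved with the genotype too. Their counts stand beside 15.6% of all genes called higher and 14.8% lower in BAT, and 1.73% and 2.3% in sWAT. Macrophage markers were higher in 8 of 14 in sWAT and 12 of 14 in BAT, and summed to between 1020 and 1440 scaled CPM in Ctrl sWAT, 1560 and 2840 in Csn8AKO sWAT, 116 and 159 in Ctrl BAT and 385 and 503 in Csn8AKO BAT. Fibroblast and progenitor markers were higher in 1 of 8 and 8 of 8, neutrophil markers in 1 and 3 of 7 tested, endothelial markers in 0 and 3 of 8, and T cell markers in 0 and 4 of 10. Of 10 B cell markers 0 were called in sWAT and 1 was higher and 1 lower in BAT, and of 7 tested erythroid markers 0 were called in either tissue. Adipocyte markers were lower in 3 of 10 in sWAT and 1 of 10 in BAT. Brown adipocyte markers were lower in 2 of 8 in sWAT, and in BAT 1 was higher and 1 lower. Skeletal muscle markers were higher in 5 of 8 in BAT, and 0 were called in sWAT. Their summed level was raised only in Csn8AKO BAT 1 and 5 (124 and 218 scaled CPM), against 1.75 to 3.28 in the other BAT libraries. Genes for proteins of neutrophil extracellular traps, structures of released chromatin, were higher in 8 of 13 tested in sWAT, with Ncf1 (1.1, edgeR adjusted p = 0.00524) of smallest p, and in 11 of 13 in BAT, with Itgb2 (2.27, 2.80e-07). Of 10 COP9 signalosome genes 0 were called in sWAT, and 1 was higher and 2 lower in BAT. Whether the histone changes follow the share of these cells was not tested.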

How the data were processed

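RNA of 18 libraries, 1 mouse each, was sequenced after ribosomal RNA depletion. The authors aligned paired reads of 150 bases with STAR to GRCm38 (Ensembl genes), counted uniquely aligned, unambiguous reads per gene with featureCounts, and deposited the counts of 55487 genes without normalization. The deposited CPM, FPKM and TPM were not used. Symbols were joined by gene identifier, and all 51 members have the positions of GENCODE M21.

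Genes with at least 10 counts in 4 libraries were tested from the deposited counts with edgeR 4.0.16 (TMM, robust quasi-likelihood F test) in R 4.3.3, with Benjamini-Hochberg adjustment over 23775 genes and calls at an adjusted p under 0.05. The SE is the log2 fold change over the root of F. Genotypes were compared within each tissue, the difference of the effects by an interaction, and tissues between Ctrl mice. DESeq2 1.42.0, limma 3.58.1 voom, other scalings and filters, all groups in one fit, a replicate block and each library left out were alternatives. A GC offset and fits without the libraries with lymphocyte or muscle markers were added after the data were seen. Scripts were tested on simulated data.

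The members, the lists and the comparisons were chosen with earlier results of these data known. Named genes are the 3 members per class of highest level per kilobase, those of smallest p in each comparison, members labelled in the heat maps of the study, and up to 3 genes of smallest p in each other list of processes. The H1 ratio, Hist1h4h as an example, and members named for their rho were chosen after their values were seen. Each library is a separate mouse, and p-values measure the spread between mice. Totals are in the report; levels under 1 scaled CPM rest on few counts.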

Additional observations from a re-analysis of the deposited data

Results flagged for a closer look

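In 11 of 136 groups checked, the summed class levels and 28 named members among them, 1 library lay far from the others of its group, where chance gives about 1 in 20. Ctrl sWAT 1 was the one in 4 members and 1 sum: the H2A sum was 7.69 scaled CPM there (next 4.07), Hist1h2bm 3.52 (next 1.01), Hist1h2bf 2.51 (next 0.603), Hist1h2bl 1.27 (next 0.507) and Hist1h2ak 1.06 (next 0.101). Ctrl BAT 1 was the one in 3 members: Hist1h3f at 14.4 (next 7.65), Hist1h3d at 3.34 (next 1.76) and Hist1h2ak at 1.1 (next 0.297). Hist3h2a was at 2.19 in Ctrl BAT 3 (next 1.39), Hist1h2ak at 0.505 in Csn8AKO sWAT 4 (next 0.0839) and Hist1h1c at 58.0 in Csn8AKO sWAT 1 (next 40.5). No cause of these values was tested.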

How the results depend on the processing

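In BAT, 5 members were called lower under most alternatives: there were 4 with library size alone, with the GC offset and replicate block together, or without Csn8AKO BAT 3 or 4, and 3 with all 4 groups in one fit. The share of all genes called lower was 8.86%, 13.4%, 12.6%, 11.7% and 11.1% in these fits, in the same order. The 5 called higher became 9 with library size alone, 3 with no filter, 8 with DESeq2, 10 with limma voom, 2 with all 4 groups in one fit and 0 without both libraries with muscle markers, and ran from 0 to 13 with each library left out. The share of all genes called higher was 18.1%, 8.15%, 17.5%, 19.7%, 10.8% and 10.8% in these fits, in the same order. With each library left out it ran from 12.5% to 17.3%. In sWAT, the 0 called higher became 1 with RLE factors, with ribosomal RNA and mitochondrial genes removed and with filterByExpr, 2 with no filter, DESeq2, limma voom, all 4 groups in one fit or the GC offset, and 8 without both libraries with lymphocyte markers, and ran from 0 to 6 with each library left out. The share of all genes called higher was 1.73%, 1.93% and 2.3% in the fits named for 1 member. It was 1.16%, 3.56%, 3.41%, 4.32% and 2.22% in those named for 2, and 4.08% without the lymphocyte libraries. With each library left out it ran from 0.585% to 3.33%. The 0 called lower became 1 with DESeq2, limma voom, all 4 groups in one fit and without the lymphocyte libraries, and ran from 0 to 1 with each library left out. Of all genes, 4.07%, 3.62%, 5.8% and 3.42% were called lower in these fits, and 0.749% to 2.71% with each library left out. The 3 higher in Ctrl BAT than in Ctrl sWAT became 1 with library size alone and 6 with limma voom (2 to 8 with each library left out), and the 3 lower became 5 and, with all 4 groups in one fit, 1 (1 to 7 with each library left out). Of all genes, 16.2% were higher with library size alone and 24.6% with limma voom. On the lower side the share was 29.3% with library size alone and 23.9% in the one fit. The genotype by tissue term called 0 members in each direction under every alternative run. The log2 ratio of the summed shares, Csn8AKO to Ctrl, was -0.0622 in sWAT and -0.189 in BAT. Over the alternatives it ran from -0.224 to 0.328 in sWAT (the highest without Ctrl sWAT 1) and from -0.374 to 0.0439 in BAT (the highest without the top member of each class), so that its sign is not fixed, within the spread between replicates.

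Pearson's r of the summed level with Mki67 in sWAT was 0.693 with library size alone, 0.429 with the mean of log2 levels and 0.634 without the 2 farthest libraries, and ran from -0.037 to 0.375 with each library left out. In BAT it was 0.193 and 0.632 at the first 2 of these settings, and ran from -0.158 to 0.0701. The number of members with a log2 fold change above 0 in sWAT, 37 of 51 as reported, ran from 31 (without Ctrl sWAT 3 or 4) to 46 (without the lymphocyte libraries). Of the members named for that comparison, 3 changed sign, none of them past the threshold. Hist1h2br was at 0.89 with limma voom, 0.56 without the lymphocyte libraries and from -1.43 to 0.44 with each library left out. Hist1h2ak was at 1.09 without the lymphocyte libraries and from -3.15 to 0.91 with each library left out, and Hist1h1c at 0.0079 without the lymphocyte libraries. The cause of these changes was not tested.

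Replicate numbers recur in both genotypes, and the labels do not say whether they mark pairs, so the main fits did not treat them as such. Deviations of same-numbered libraries correlated between -0.272 and 0.125 in sWAT and between -0.0785 and 0.0921 in BAT. Those of other numbers ran from -0.283 to 0.504 in sWAT and from -0.0913 to 0.145 in BAT. With so few libraries these values cannot settle whether the numbers mark pairs. With a replicate block, 0 members were called in sWAT (6 higher and 1 lower at an unadjusted p under 0.05) and 5 higher and 5 lower in BAT, of which 9 were shared with the fit without it. Of all genes, under 1% were called in each direction in sWAT with the block, and 13.4% had an unadjusted p under 0.05. In BAT 14.5% of all genes were called higher and 14.3% lower with the block. With the GC offset and the replicate block together, 1 was higher in sWAT, and 4 were higher and 4 lower in BAT. The shares of all genes were then 0.753% higher in sWAT, and 15.2% higher and 13.4% lower in BAT. Counts limit members under 1 scaled CPM most.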
